A study of Mus musculus with 8 samples.

Results

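The genes described here carry out antigen presentation on major histocompatibility complex (MHC) class II. They are H2-Aa, H2-Ab1, H2-Eb1, Cd74, Ciita, H2-DMa, H2-DMb1, H2-DMb2 and Ctss, 9 of the 16309 genes that could be named on the arrays. These 9 were chosen as core genes of the pathway, with earlier results of these data known. They were read by 13 of 40963 probes. H2-Ab1 had 3 probes, H2-Aa and H2-DMb2 had 2 each, and the other genes had 1. For a gene with several probes, the brightest one is the gene's value unless another is named.

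The arrays measured mucosal RNA from the rectum and the colon of IL18ko mice, which lack interleukin 18, and of wild-type (WT) mice. Each genotype was sampled after isolation stress, in which a male was taken from a cage shared with its brothers and housed alone, and as a control. This gives 8 groups with 1 array each: rectum and colon, from IL18ko and WT mice, under stress and as control. Each array carried equal amounts of RNA pooled from 5 mice, so no group has a replicate and the spread between single mice was not measured. The mice had been kept in groups of brothers until 10 to 12 weeks of age. Isolation lasted 8 days by the design text but 16 days by the protocol for the treatment. Controls were killed when the isolation of the others began, so housing and age cannot be told apart. The strain of the mice is not given in the sources used here. Rectum means mucosa within 7 mm of the anus, and colon means mucosa 2.5 to 3.5 cm from the ileocecal junction.

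Class II molecules display peptides from engulfed material to helper T cells. Dendritic cells, macrophages and B cells carry them at all times, and gut epithelium can be induced to make them, chiefly by interferon gamma. The heterodimer of an alpha and a beta chain is built in the endoplasmic reticulum around the invariant chain, Cd74, which blocks the peptide groove. In the endosome cathepsin S, encoded by Ctss, trims Cd74 to a short remnant, and the editor H2-DM exchanges that remnant for an antigenic peptide. Ciita is the coactivator that switches on the genes of the class II chains, Cd74 and H2-DM. It binds no DNA itself but docks on factors assembled at paired motifs, the X and Y boxes, in the promoters. Interleukin 18 is a cytokine known for inducing interferon gamma in T and natural killer cells.

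The exact letters searched as cores of both boxes stood in the promoters of H2-Eb1, H2-DMb1 and H2-DMb2. In that of H2-Aa the Y box core was matched, but not the exact letters searched for the X box. A search for exact letters cannot tell whether H2-Aa has an X box written in other letters. The promoters are shown because these boxes are the sequence feature by which class II chain and H2-DM genes are known to be controlled. RefSeq promoter windows (GRCm38.p6) were matched by symbol for 6 of the 9 genes, all except H2-Ab1, Cd74 and Ciita. The stretch just before the annotated start is printed 5′ to 3′ on the gene's own strand. Capitals mark the core of the X box (GATGATGC), the core of the Y box (TGATTGG), the cyclic AMP response element (TGACGTCA) and a sequence like the interferon-stimulated response element (GAAA, any 2 bases, GAAA). No 2 of the marked motifs overlap.
H2-Aa, chr17:34287824-34287973, minus strand: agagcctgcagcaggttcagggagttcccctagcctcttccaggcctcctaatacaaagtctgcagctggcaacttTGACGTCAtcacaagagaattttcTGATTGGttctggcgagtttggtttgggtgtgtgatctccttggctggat
H2-Eb1, chr17:34305717-34305866, plus strand: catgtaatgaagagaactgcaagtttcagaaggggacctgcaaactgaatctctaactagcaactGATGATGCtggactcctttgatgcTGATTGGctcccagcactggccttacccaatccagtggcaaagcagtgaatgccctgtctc
H2-DMb1, chr17:34153041-34153190, plus strand: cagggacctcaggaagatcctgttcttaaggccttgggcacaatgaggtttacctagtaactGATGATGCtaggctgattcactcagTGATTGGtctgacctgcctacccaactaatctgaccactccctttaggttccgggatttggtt
H2-DMb2, chr17:34145099-34145248, plus strand: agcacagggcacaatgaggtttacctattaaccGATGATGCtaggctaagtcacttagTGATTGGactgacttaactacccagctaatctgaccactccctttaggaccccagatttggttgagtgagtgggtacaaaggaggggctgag
Ctss, chr3:95526636-95526785, plus strand: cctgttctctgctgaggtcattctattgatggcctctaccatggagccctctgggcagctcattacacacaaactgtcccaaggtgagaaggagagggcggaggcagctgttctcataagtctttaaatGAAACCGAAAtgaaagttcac

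The X box core stood in the windows of H2-Eb1, H2-DMb1 and H2-DMb2, and in 231 of 32851 promoter windows overall (0.703%, both strands searched). From the X box core to the Y box core there were 16 bases in H2-Eb1 and 17 bases in both H2-DMb1 and H2-DMb2. H2-Aa had the cyclic AMP response element in that place, also 16 bases before its Y box core. The Y box core stood in 7.82% of all windows, the cyclic AMP response element in 1.79% and the interferon-type sequence of Ctss in 3.44%. Either upstream motif with a Y box core on the same strand 16 or 17 bases on stood in 6 windows (0.0183%), 4 of them those of H2-Aa, H2-Eb1, H2-DMb1 and H2-DMb2. Both windows of H2-DMa held none of the 4 motifs. The motifs and the spacing of 16 or 17 bases were chosen after these sequences had been read. The 4 windows were therefore bound to be among the 6. A match is a description of letters, not of binding.

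Levels are given as log2 of the background-corrected intensity relative to the array's own 75th percentile, so 0 is the 75th percentile and 1 unit is a doubling. Levels of different genes come from different probes and are not set against each other. All 9 genes were well above background on all 8 arrays. Across arrays, 62.2% to 66.4% of spots were well above background, and saturation was flagged for 0 spots. All 4 rectum arrays were on 1 slide and all 4 colon arrays on another, so slide and tissue cannot be told apart. The Il18 probe separated the genotypes as labelled: it stayed at background on each of the 4 IL18ko arrays, whereas WT arrays read 5.88 and 4.40 in rectum and 2.90 and 2.76 in colon (stress, then control).

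**Figure D1:**
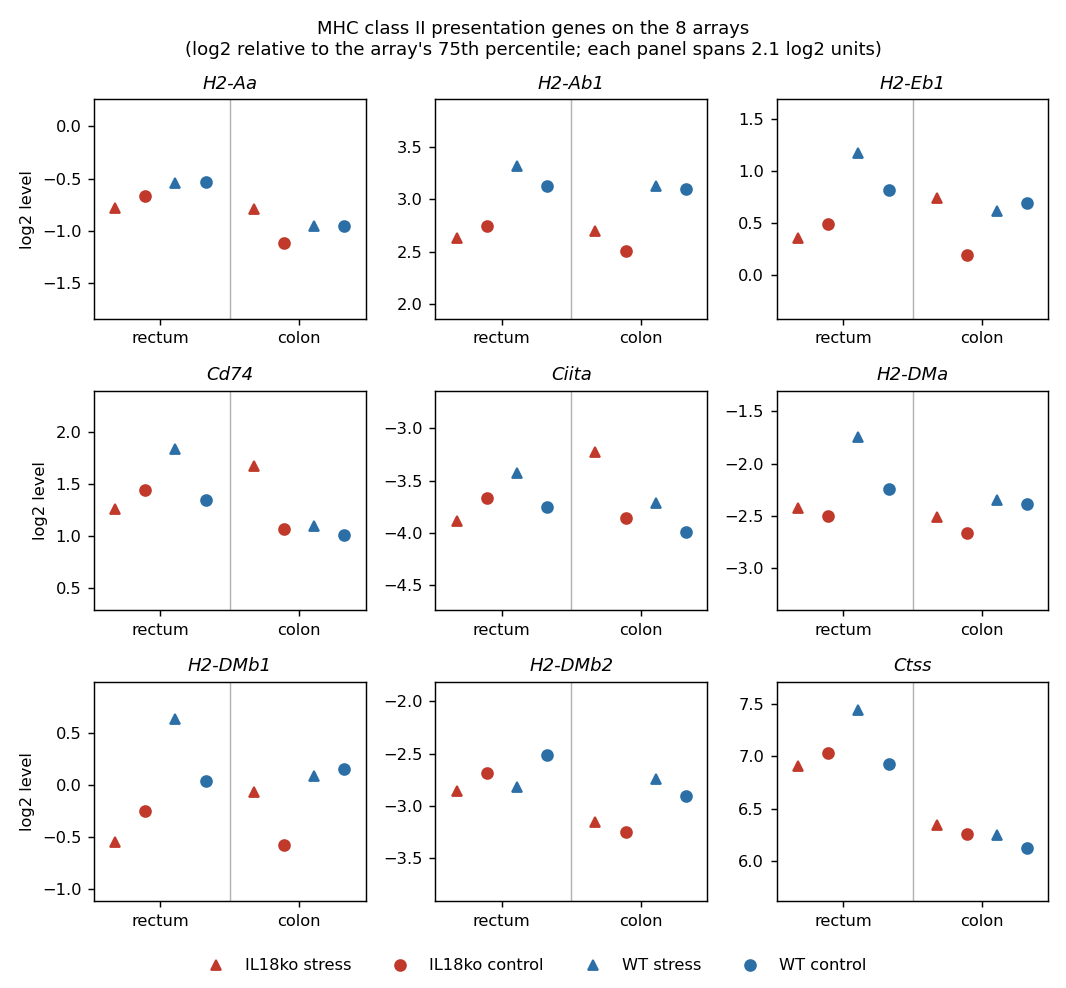
Level of each of the 9 genes on each of the 8 arrays, as log2 relative to the array's 75th percentile, with rectum left of colon, IL18ko in red, WT in blue, triangles for stress and circles for control. Each point is 1 array of RNA pooled from 5 mice. Ctss lies higher on all rectum arrays than on any colon array, and H2-Ab1 lies lower on all IL18ko arrays than on any WT array.

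The beta chain H2-Ab1 pairs with H2-Aa to form the H2-A molecule, the counterpart of human HLA-DQ. In rectum, H2-Ab1 stood at 2.63 after stress and 2.74 in controls of IL18ko mice, against 3.32 after stress and 3.13 in controls of WT mice. In colon, the corresponding levels were 2.70 and 2.51 in IL18ko mice, against 3.13 and 3.10 in WT mice. All 4 IL18ko arrays were below all 4 WT arrays.

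Its partner H2-Aa did not separate the genotypes in this way. H2-Aa stood at -0.78 (stress) and -0.67 (control) in IL18ko rectum, against -0.54 and -0.54 in WT rectum. In colon it was -0.79 and -1.11 in IL18ko mice, against -0.95 and -0.96 in WT mice. The lowest rectum array and the highest colon array, both from stressed IL18ko mice, were almost level.

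H2-Eb1 is the beta chain of H2-E, the counterpart of HLA-DR. In rectum H2-Eb1 was 0.36 and 0.49 in IL18ko mice (stress, then control), against 1.17 and 0.82 in WT mice, with no overlap. In colon it was 0.74 and 0.19 in IL18ko mice, against 0.62 and 0.69 in WT mice, so stressed IL18ko colon was the highest of the 4 colon arrays. The H2-Ea alpha chain was not among the genes named on the arrays here.

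Cd74 and Ciita had a different order of arrays. Cd74 was 1.26 and 1.45 in IL18ko rectum (stress, then control), against 1.83 and 1.35 in WT rectum, and 1.68 and 1.07 in IL18ko colon, against 1.09 and 1.01 in WT colon. The highest Cd74 levels were therefore those of stressed WT rectum and stressed IL18ko colon, and the genotypes overlapped. Ciita was -3.88 and -3.67 in IL18ko rectum, against -3.42 and -3.75 in WT rectum, and -3.22 and -3.86 in IL18ko colon, against -3.71 and -3.99 in WT colon. The same pair of arrays was highest for Ciita, whose intensity lay between 49.3 and 70.9 units on every array.

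The editor H2-DM is a dimer of H2-DMa with a beta chain from H2-DMb1 or H2-DMb2, neighbouring genes with similar sequence. Cross-hybridisation between the beta genes was not tested, because the probe sequences were not used here. H2-DMa was -2.43 and -2.50 in IL18ko rectum (stress, then control), against -1.75 and -2.24 in WT rectum, and -2.51 and -2.66 in IL18ko colon, against -2.35 and -2.39 in WT colon. H2-DMb1 was -0.54 and -0.25 in IL18ko rectum, against 0.63 and 0.04 in WT rectum, and -0.07 and -0.57 in IL18ko colon, against 0.09 and 0.15 in WT colon. For both genes every IL18ko array was below every WT array, and stressed WT rectum was highest.

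H2-DMb2 was -2.86 and -2.69 in IL18ko rectum, against -2.82 and -2.51 in WT rectum, and -3.15 and -3.25 in IL18ko colon, against -2.74 and -2.91 in WT colon. Its genotypes overlapped. A second, dim H2-DMb2 probe was well above background on 3 of 4 rectum arrays and on 0 of 4 colon arrays, at least 1.46-fold higher in rectum, and was not tested.

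Ctss was 6.91 and 7.04 in IL18ko rectum (stress, then control), against 7.45 and 6.92 in WT rectum. In colon Ctss was 6.34 and 6.25 in IL18ko mice, against 6.25 and 6.12 in WT mice. The tissues did not overlap, and the single highest array was again stressed WT rectum.

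To compare rectum with colon, the first comparison set each rectum array against the colon array of the same genotype and housing, giving 4 differences, and tested their mean with limma over all probes. A gene is called where the Benjamini-Hochberg adjusted p is under 0.05, and each ± on a difference is limma's standard error. The labels do not say whether the rectum and colon RNA of a pair came from the same mice, and the p-values measure the spread between these 4 pairs of pools. An exact sign-flip permutation test of 4 pairs cannot give a two-sided p below 0.125.

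Of the 9 genes, Ctss rose in rectum and the other 8 did not pass the test. Among all 12718 genes tested, 29.9% were called between the tissues, with 14.1% of all genes higher in rectum and 15.8% lower, so 1 of 9 is no more than the background share. Ctss averaged 7.08 ± 0.253 in rectum and 6.24 ± 0.093 in colon (SD, n = 4 arrays each). The rectum minus colon difference was 0.84 ± 0.118 on the log2 scale, 1.79-fold (adjusted p = 0.0031 by limma, higher in 4 of 4 pairs). The 4 differences were 0.57 in stressed IL18ko, 0.78 in control IL18ko, 1.20 in stressed WT and 0.80 in control WT mice. Ctss passed under every alternative run, with differences between 0.72 and 0.93.

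H2-Aa was the other gene whose tissues did not overlap. Its difference was 0.32 ± 0.12 (adjusted p = 0.099 by limma), and the second H2-Aa probe gave 0.32 (adjusted p = 0.089). The pairs gave 0.01 in stressed IL18ko mice and 0.44, 0.42 and 0.42 in control IL18ko, stressed WT and control WT mice. H2-DMa was also higher in rectum in 4 of 4 pairs, by 0.25 ± 0.14 (adjusted p = 0.224), and by 0.13 without the stressed WT pair. A direction that held in 4 of 4 pairs was met by 3 of the 9 genes, against 26.4% of all genes for higher in rectum, and groups that did not overlap by 2 of 9, against 17.0%.

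The remaining genes spanned a narrow range of tissue differences. H2-DMb2 differed by 0.30 ± 0.15 (adjusted p = 0.194) and Cd74 by 0.26 ± 0.19 (adjusted p = 0.355). The Cd74 pairs ran from -0.42 in stressed IL18ko to 0.74 in stressed WT mice, and its mean was 0.48 without the stressed IL18ko pair and 0.099 without the stressed WT pair. H2-DMb2 gave 0.76 as the mean over its probes, 1 of them dim, and 0.14 with normexp background correction. It passed in 1 setting only, without the pair of stressed WT mice, at 0.42 (adjusted p = 0.043; range over all settings 0.043 to 0.529). H2-Eb1, H2-Ab1, H2-DMb1 and Ciita differed by 0.15, 0.10, 0.07 and 0.01. The other 2 H2-Ab1 probes gave 0.24 and 0.31 (adjusted p = 0.138 and 0.070), both higher in rectum in 4 of 4 pairs, and the mean over its probes was 0.22. Leaving out 1 pair moved H2-Eb1 between 0.014 and 0.33. The sign was positive for 9 of 9 genes and their median was 0.25, against a median of 0.034 and 53.5% positive among all genes.

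**Figure D2:**
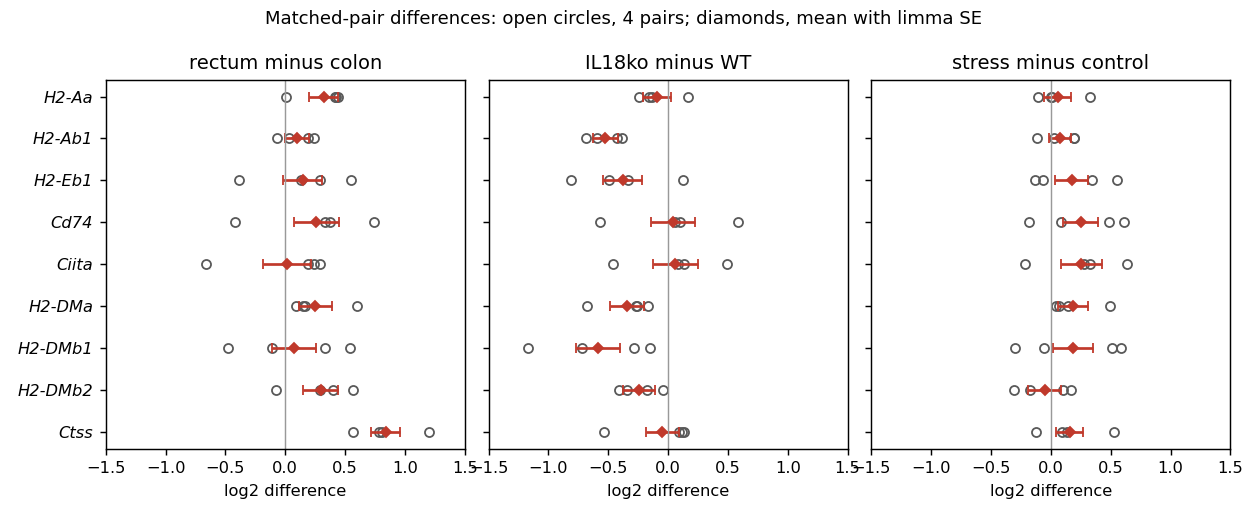
Differences of the 9 genes within each of the 4 matched pairs (open circles) and their mean with limma's standard error (diamonds with bars), in log2 units, for rectum minus colon, IL18ko minus WT and stress minus control. In the tissue panel the mean of Ctss lies at 0.84, and in the genotype panel H2-Ab1, H2-DMa, H2-DMb1 and H2-DMb2 lie below 0 in all 4 pairs.

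Other genes of the class II route were drawn from a list of endosomal proteases, companions and costimulators. Where 14.1% of all genes rose in rectum and 15.8% fell, 3 of 12 tested rose and 0 fell, with a median difference of 0.29. They were Ctsl (0.80 ± 0.146, adjusted p = 0.0089) and Ctsh (0.54 ± 0.129, adjusted p = 0.024), both endosomal cathepsins, and Cd9 (0.52 ± 0.13, adjusted p = 0.028), a tetraspanin. Ifi30, the thiol reductase of the antigen-processing compartment, was at 0.29 ± 0.094 (adjusted p = 0.065). Ctsl is best known for trimming the invariant chain in thymic epithelium.

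Among 14 tested regulators of class II transcription, 2 rose and 0 fell, with a median of 0.0017. The share that rose was near the 14.1% of all genes. Irf2, an interferon regulatory factor, was 1.45 ± 0.23 higher in rectum (adjusted p = 0.0051), and Usf2, a factor of the Ciita promoter, was 0.47 ± 0.14 higher (adjusted p = 0.049). The X-box factors did not pass: Rfx5 stood at -0.02, Rfxap at 0.02 and Rfxank at 0.13.

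Of 19 tested genes of the interleukin 18 and interferon gamma axis, 2 rose and 4 fell in rectum. Among all genes 14.1% rose and 15.8% fell, shares that also stand beside the class I counts below. The receptor chain Ifngr2 was 0.46 ± 0.09 higher (adjusted p = 0.012) and the kinase Jak2 was 0.54 ± 0.095 higher (adjusted p = 0.0073). Tbx21, the transcription factor that directs interferon gamma production, was -1.17 ± 0.17 in rectum minus colon (adjusted p = 0.0038). The interferon-induced chemokine Cxcl9 was well above background on 0 of 4 rectum arrays and 4 of 4 colon arrays, at least 3.94-fold lower in rectum. Il18r1, the receptor of interleukin 18, was well above background on 1 of 4 rectum arrays and 4 of 4 colon arrays. Both genes met the filter of at least 4 arrays through colon, where they read higher. Their places among the 4 that fell are therefore no support for a difference. The GTPase Irgm1 fell by 0.37 (adjusted p = 0.040). Of 12 tested class I genes, 2 rose and 2 fell: Tap2, a peptide transporter chain, and the immunoproteasome subunit Psmb8 rose by 0.72 and 0.79 (adjusted p = 0.041 and 0.040), while the light chain B2m and the disulfide isomerase Pdia3 fell by 0.72 and 0.39 (adjusted p = 0.0041 and 0.043).

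Some markers of cells that carry class II were called between the tissues, where 14.1% of all genes were called higher in rectum and 15.8% lower. Of 10 macrophage markers tested, 4 rose in rectum (Cd163, Mrc1, C1qb and C1qa) and 0 fell, with a median of 0.72. Of 5 B cell markers tested, 3 rose, Ms4a1 and Fcmr among them, and of 7 dendritic cell markers 1 rose (Clec10a), with a median of 0.21, a share near that of all genes. The summed signal, on a scale where the 75th percentile is 1, was 36.5 to 88.3 in rectum and 25.5 to 43.4 in colon for macrophage markers. For dendritic cell markers it was 5.63 to 10.6 in rectum and 4.11 to 6.02 in colon, and for B cell markers 0.78 to 1.59 in rectum and 0.32 to 0.61 in colon. The brightest gene made up most of 2 of these sums, Lyz2 with 80.5% to 88.2% for macrophages and Id2, which is not specific to dendritic cells, with 67.8% to 83.5%. Without them the sums were 6.81 to 10.4 in rectum and 4.88 to 7.10 in colon for macrophage markers, and 1.67 to 2.85 in rectum and 0.72 to 1.11 in colon for dendritic cell markers. That dendritic gap came largely from Clec10a, which averaged 0.36 in rectum and -1.98 in colon on the log2 scale. The other 6 dendritic markers tested differed by -0.27 to 0.53 and did not pass. Cd209a, Clec9a and Ccr7 of the dendritic list and Pax5 of the B cell list were not well above background on any array. In bulk mucosa, more cells of a type and more RNA per cell cannot be told apart, and the part of these cells in the Ctss difference was not tested. Of 5 pan-leukocyte markers 0 were called, with a summed signal of 2.24 to 4.79 in rectum and 2.42 to 3.65 in colon. Of 9 T cell and innate lymphoid cell markers tested, 2 fell in rectum (Cd3d and Lck) and 0 rose. The 10 colonocyte markers were above background on every array. Of 12 skeletal muscle markers 7 rose in rectum, with a summed signal of 7.20 to 170 in rectum and 3.69 to 6.34 in colon. Myh4, Tnnt3 and Mb, among these 7, were well above background on only 1 of 4 colon arrays each. They met the filter of at least 4 arrays through rectum, so their calls are no support for a difference. Of 6 plasma cell markers 4 fell, with a summed signal of 11.9 to 14.8 in rectum and 26.5 to 42.0 in colon.

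**Figure D3:**
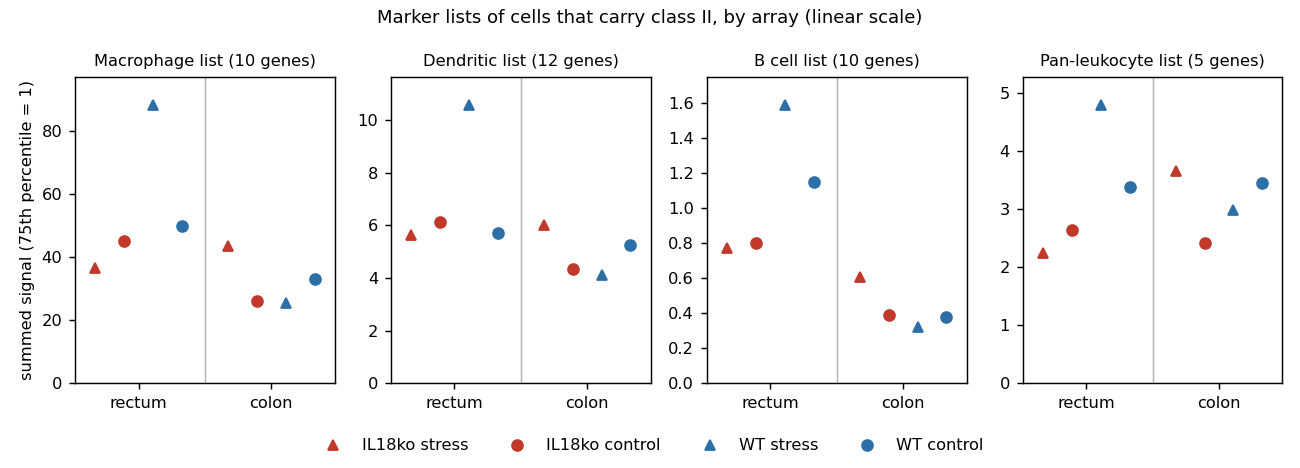
Summed signal of the macrophage, dendritic cell, B cell and pan-leukocyte marker lists on each array, on a linear scale where the array's 75th percentile is 1, with rectum left of colon, IL18ko in red and WT in blue, triangles for stress and circles for control. The array of stressed WT rectum is highest in each panel, at 88.3 for macrophage and 10.6 for dendritic cell markers.

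The second comparison asked which genes differed between IL18ko and WT mice within the same tissue and housing. None of the 9 genes passed, in a comparison that called 0.0472% of all genes (6 of 12718). Unadjusted p was under 0.05 for H2-Ab1, H2-DMa and H2-DMb1, 3 of 9, against 17.3% of all genes. If the rectum and colon pools came from the same mice, the 4 pairs are not 4 independent comparisons of mice. On both slides the IL18ko arrays lay at positions 3 and 4 and the WT arrays at positions 1 and 2. Genotype and slide position therefore cannot be told apart.

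Within the H2-A dimer, H2-Ab1 averaged 2.65 ± 0.104 in IL18ko and 3.17 ± 0.101 in WT mice (SD, n = 4 arrays each). The difference was -0.52 ± 0.103, a level 1.44-fold lower in IL18ko (95% interval -0.77 to -0.28), with an unadjusted p of 0.0016 and an adjusted p of 0.194 by limma. It was -0.69 in stressed rectum, -0.39 in control rectum, -0.43 in stressed colon and -0.60 in control colon. The H2-Aa difference was -0.09 ± 0.12 (adjusted p = 0.740).

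The 3 probes of H2-Ab1 gave the same order of genotypes. The difference was -0.41 on each of the other 2 probes (adjusted p = 0.195 for both), and on each probe no IL18ko array reached a WT array. One of those probes is printed 10 times on the array, and its spots differed within an array by an SD of 0.026 to 0.0457 log2 units. Its levels were 1.07 and 1.12 in IL18ko rectum (stress, then control), against 1.63 and 1.53 in WT rectum, and 1.03 and 0.82 in IL18ko colon, against 1.32 and 1.22 in WT colon. That SD is of repeated spots and leaves out the spread between mice.

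**Figure D4:**
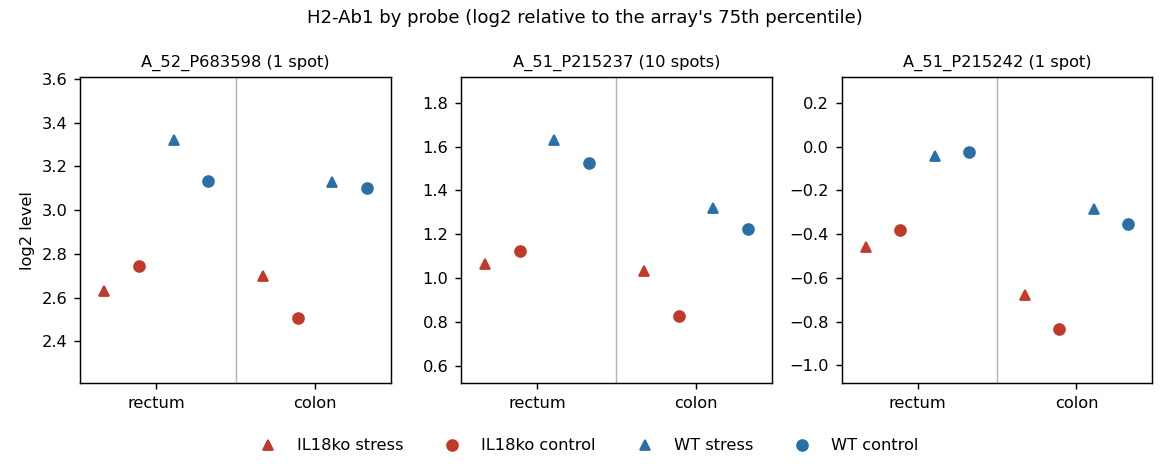
Level of the 3 H2-Ab1 probes on each array, as log2 relative to the array's 75th percentile, with rectum left of colon, IL18ko in red, WT in blue, triangles for stress and circles for control. The vertical axes have the same length in log2 units but different positions. On each probe the 4 IL18ko arrays lie below the 4 WT arrays.

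For the H2-DM editor, H2-DMb1 was at -0.58 ± 0.184 (adjusted p = 0.223), with -1.17 in stressed rectum, -0.29 in control rectum, -0.15 in stressed colon and -0.72 in control colon. H2-DMa was at -0.34 ± 0.14 (adjusted p = 0.296) and H2-DMb2 at -0.24 ± 0.136 (adjusted p = 0.419), both negative in 4 of 4 pairs. With normexp they were at -0.19 and -0.14, and the mean over both H2-DMb2 probes was -0.05. H2-Eb1 was at -0.38 ± 0.163 (adjusted p = 0.316), positive in stressed colon at 0.12 and negative in the other 3 pairs.

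Lower in 4 of 4 pairs held for 4 of the 9 genes (H2-Ab1, H2-DMa, H2-DMb1 and H2-DMb2), against 15.4% of all genes. Groups that did not overlap, with IL18ko lower, were found for 3 of 9 (H2-Ab1, H2-DMa and H2-DMb1), against 5.44% of all genes. The median over the 9 genes was -0.24, against -0.0028 over all genes.

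Averaging the rectum and colon arrays of the same genotype and housing before the fit, which leaves 1 residual degree of freedom, turned 3 calls. H2-Ab1 (adjusted p = 0.0064), H2-DMb1 (adjusted p = 0.0056) and H2-Eb1 (adjusted p = 0.031) then passed, among 3047 probes called in place of 13. H2-Ab1 also passed without the pair of stressed rectum arrays, at -0.47 (adjusted p = 0.029), among 2559 probes. Over all settings the adjusted p of H2-Ab1 ranged from 0.0064 to 0.658, that of H2-DMb1 from 0.0056 to 0.658 and that of H2-Eb1 from 0.031 to 0.697.

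Cd74, Ciita and Ctss showed no common direction. Cd74 differed by 0.04 ± 0.185 (95% interval -0.40 to 0.48), with -0.57 in stressed rectum, 0.10 in control rectum, 0.58 in stressed colon and 0.06 in control colon. Ciita differed by 0.06 ± 0.19 (95% interval -0.39 to 0.52), with the same signs in the same pairs. Ctss differed by -0.05 ± 0.138, and only its stressed rectum pair was negative, at -0.54. The signs of these 3 means turned under some settings and carry no direction.

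Pair by pair, 9 of 9 genes were lower in IL18ko than in WT in stressed rectum, with a median of -0.57, against -0.037 over all genes. In control rectum 6 of 9 were lower (median -0.18, all genes -0.012). In stressed colon 4 of 9 were lower (median 0.09, all genes 0.027) and in control colon 6 of 9 (median -0.27, all genes 0.0045). Each pair is 1 array against 1 array, and the share of all genes lower in each pair was not counted. These counts are therefore descriptions only. The array of stressed WT rectum also had the highest summed signal for macrophage markers (88.3, against 25.5 to 49.97 on the other 7 arrays), dendritic cell markers (10.6, against 4.11 to 6.12) and B cell markers (1.59, against 0.32 to 1.15). Its 75th percentile intensity was the lowest, at 578, against 663 to 818 elsewhere. Without that pair the difference of H2-Ab1 was -0.47, that of H2-DMb1 -0.39 and that of H2-Eb1 -0.24.

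Outside the 9 genes, no gene of the other class II, regulator, interferon or class I lists passed the genotype test, apart from Il18 itself. Medians were -0.049 for 12 other class II genes, -0.028 for 14 regulators, -0.053 for 19 genes of the interferon axis and -0.12 for 12 class I genes. Cd86, the costimulatory ligand of CD28, was at -0.82 ± 0.25 (adjusted p = 0.218) and the immunoproteasome subunit Psmb9 at -0.53 ± 0.147 (adjusted p = 0.204). Both were lower in 4 of 4 pairs, as were 15.4% of all genes. Cd86 was dim, at a mean of -5.48 in IL18ko and -4.66 in WT mice. It was well above background on 3 of 4 IL18ko arrays, and its pairs ran from -1.28 to -0.07. Irf1, which relays interferon gamma to the Ciita promoter, differed by -0.10. The 7 dendritic cell markers tested were all negative, with a median of -0.29, where 50.4% of all genes were negative. The median of 10 macrophage markers was 0.02. Pan-leukocyte markers had a median of -0.42 over 5 genes, and their summed signal was 2.24 to 3.65 in IL18ko and 2.99 to 4.79 in WT mice. Endothelial markers were positive for 6 of 6 genes (median 0.49), with Tie1 at 0.82 and Tek at 0.77 (adjusted p = 0.195 for both). Skeletal muscle markers were positive for 11 of 12 (median 1.03), and none of either list passed. Among all genes 49.6% were positive. The part of these cells in the H2-Ab1 and H2-DMb1 differences was not tested.

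The third comparison asked what isolation did within a genotype and tissue. None of the 9 genes passed, where 0.00% of all genes were called by limma. None had an unadjusted p under 0.05, against 3.65% of all genes, and none passed when tissues were averaged. Ciita was at 0.25 ± 0.17 (adjusted p = 0.864) and Cd74 at 0.25 ± 0.15 (adjusted p = 0.864). The Cd74 pairs were -0.18 in IL18ko rectum, 0.49 in WT rectum, 0.61 in IL18ko colon and 0.08 in WT colon. For Ciita they were -0.21, 0.32, 0.63 and 0.27 in the same order, so both were negative in IL18ko rectum alone. Leaving out 1 pair moved the mean between 0.13 and 0.39 for Cd74 and between 0.13 and 0.41 for Ciita.

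H2-DMa had a positive housing difference in 4 of 4 pairs, with a mean of 0.19, against 8.80% of all genes. The means of H2-DMb1, H2-Eb1, Ctss, H2-Ab1 and H2-Aa were 0.18, 0.17, 0.16, 0.07 and 0.06, and that of H2-DMb2 was -0.05. Leaving out the WT rectum pair lowered H2-DMa to 0.09, H2-DMb1 to 0.05 and Ctss to 0.03. By pair, 9 of 9 genes were higher after stress in IL18ko colon (median 0.33), 7 of 9 in WT rectum (median 0.35), 7 of 9 in WT colon (median 0.04) and 1 of 9 in IL18ko rectum (median -0.13). The medians over all genes in these pairs were 0.042, 0.037, -0.00091 and -0.0097, in the same order. The share of all genes higher in each pair was not counted, and each pair is 1 array against 1 array. The median over the 9 genes was 0.17, against 0.029 over all genes.

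None of the other class II, regulator, interferon or class I genes passed the housing test. The difference was positive for 18 of 19 genes of the interferon axis (median 0.15) and for 10 of 12 other class II genes (median 0.10), where 57.1% of all genes were positive.

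Whether the genotype difference depended on the tissue was tested in the same 4 pairs. None of the 9 genes passed, nor did any of the 12718 genes. The widest gaps among the 9 genes were those of Cd74 and Ciita. Cd74 differed by -0.24 in rectum and 0.32 in colon (rectum minus colon difference -0.56 ± 0.33), and Ciita by -0.19 in rectum and 0.31 in colon (-0.50 ± 0.38). Adjusted p lay between 0.831 and 0.981 for the 9 genes. Dependence of the housing difference on tissue or genotype passed for none of them.

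Across the 8 arrays, H2-Ab1, H2-Eb1, H2-DMa and H2-DMb1 correlated with each other at r between 0.83 and 0.95 (6 pairs), and Cd74 with Ciita at 0.86. H2-Ab1 correlated with Cd74 at 0.21 and with Ciita at 0.10, and H2-Aa with Ctss at 0.86. All 36 pairs of the 9 genes ranged from -0.15 to 0.95. These are descriptions over 8 arrays on 2 slides, each array enters every correlation, and the sets of genes were picked from the correlations themselves.

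The genes most like the mean of H2-Aa, H2-Ab1, H2-Eb1 and Cd74 were ranked by Pearson's r over the 8 arrays, among 11201 genes above background on all arrays whose SD was at least 0.115, which is 50% of the SD of that mean. The first 3 were Adam4 (r = 0.965), Evi2a (0.965) and Zfp566 (0.962). They were followed by Ankrd33, Gas2, Oxr1, Eif2s3y, Coil, Nipsnap3b and Ms4a6c, all with r of at least 0.948. All 10 genes, like the mean itself, were highest on the array of stressed WT rectum and lowest on that of control IL18ko colon. The ranking therefore leans on single arrays without replicates. Evi2a stood at -0.92 in stressed WT rectum and between -3.04 and -1.90 on the other 7 arrays.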

How the data were processed

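Agilent 1-colour whole mouse genome arrays were read from 8 scanner files, 1 per pooled RNA. Per the file headers, the deposited intensity values are Feature Extraction's background-corrected signals on a linear scale. A second table, in which every value is a ratio to the array of control WT colon per the labels, correlated with the scanner values in log2 at r from 0.995 to 1.00 and served as an alternative. Probes were named through their transcript accession in RefSeq's GRCm38.p6 table (22857 of 40963 probes; 18106 stayed unnamed).

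Signals were divided by the array's 75th percentile and log2 transformed, control spots were left out, and spots of a probe were averaged. A probe was kept where at least 4 of 8 arrays showed it well above background, and the 26265 such probes were fitted with limma 3.58.1 in R 4.3.3, as 4 matched differences per comparison with a variance trend, and p-values were Benjamini-Hochberg adjusted over all of them. Dependence of a difference on tissue or genotype used the same 4 differences with that factor as a term. The fits were tested on simulated data. Marker and pathway lists, like the 9 genes, were chosen with earlier results of these data known. Named genes are the 9 members, list genes that passed or, failing that, differed most, and the 10 most alike in pattern; Ifi30, the X-box factors, Irf1, Cd86 and Psmb9 were picked from the lists with their values in view. The alternatives tried were median centring, quantile normalization, normexp with offset 50 (on median signals), other filters, no variance trend, arrays as independent samples, means over tissue, the mean over a gene's probes, the deposited ratios and leaving out each pair. Array number limits the precision.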

Additional observations from a re-analysis of the deposited data

Results flagged for a closer look

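In 2 genes, every stress minus control difference of one tissue ran opposite to those of the other. H2-DMb2, a beta chain of the H2-DM editor, had housing differences of -0.17 in IL18ko rectum and -0.31 in WT rectum, and of 0.10 in IL18ko colon and 0.17 in WT colon. The rectum minus colon gap was -0.3738 ± 0.301 on the log2 scale. For H2-Aa the differences were -0.11 in IL18ko rectum and -0.003 in WT rectum, and 0.33 in IL18ko colon and 0.005 in WT colon, a gap of -0.222 ± 0.268. Both gaps were tested by limma in the 4 pairs and neither passed (adjusted p = 0.999997 for both). The H2-Aa differences in WT mice were close to 0.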

How the results depend on the processing

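The 4 pairs come from pools without replicates, and tissue lies on separate slides, so the fit with slide as a block was not run. Each combination of genotype and housing also kept the same slide position on both slides, so neither factor can be told apart from position. Ciita and the dim H2-DMb2 probe were near background. Of 348 alternatives, results other than those given here kept their direction and side of the threshold.

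Genotype calls were 13 of 26265 probes, and 7 among probes above background on all 8 arrays, 32 with arrays as independent samples, 3047 with means over tissue and 3 to 2559 when 1 pair was left out (2559 without the stressed rectum pair). Tissue calls were 7097, and 3479 to 10577 when 1 pair was left out (10577 without the stressed WT pair). Housing calls were 0 (1021 at an unadjusted p under 0.05 by limma), and 23 with means over tissue. Dependence of genotype on tissue gave 0 calls (740 unadjusted), and 2 with normexp. Median centring split the tissue calls 4017 higher and 3321 lower, in place of 3422 and 3675, and shifted every tissue difference by 0.052. It shifted every genotype difference by -0.076 and every housing difference by -0.013. Small differences turned sign. Under median centring the genotype difference was -0.034 for Cd74 and -0.015 for Ciita, which was -0.016 under quantile normalization. That of Ctss was 0.095 under quantile normalization and 0.11 with normexp, and the housing difference of H2-Ab1 was -0.021 with normexp. Leaving out 1 pair gave tissue differences of -0.077 to 0.24 for Ciita and -0.085 to 0.25 for H2-DMb1, genotype differences of -0.14 to 0.25 for Cd74, -0.082 to 0.23 for Ciita and -0.11 to 0.11 for Ctss, and housing differences of -0.035 to 0.11 for H2-Aa and -0.13 to 0.032 for H2-DMb2. The cause was not tested. The calls of H2-Ab1, H2-DMb1, H2-Eb1 and H2-DMb2 that changed stand with the results above.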
